A study of Oryctolagus cuniculus with 6 samples.

Results

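ASZ1 and CCNB1IP1, a germ cell gene and a meiosis gene, were followed in rabbit blastocysts on all 5 of their probes, of 43603 distinct non-control probes on the array. They are 2 of 9721 genes that could be given a symbol there. Probes were taken by gene name, description or accession, which gave 2 for ASZ1 and 3 for CCNB1IP1, and no probe of either gene was left out. The genes were chosen by their measured log2 values in slowly frozen over control embryos, where a probe of each passed the test, so that comparison is given as a description. All embryos were from New Zealand White Rabbit and were collected as blastocysts at 6 days of age. Each of the 6 two-channel arrays set an extract of vitrified or slowly frozen embryos against an extract of untreated control embryos, with 3 arrays per treatment.

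The vitrified embryos had been plunged into liquid nitrogen in DMSO (dimethyl sulphoxide) with ethylene glycol, and the frozen embryos had been cooled slowly in DMSO alone. Both kinds had then been transferred into recipient females and were viable when collected, whereas the controls are given only as untreated embryos that developed in vivo. Cryopreservation and transfer therefore cannot be told apart in either comparison. The number of embryos behind an extract is not given in the sources used here. By the labels, arrays of the same replicate number used the same control extract, so both comparisons rest on the same 3 controls. In replicates 1 and 3 the treated sample carried the red dye Cy5, and in replicate 2 it carried the green dye Cy3.

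ASZ1, also called GASZ, is an ankyrin repeat protein that in mouse germ cells sits on the outer membrane of mitochondria, where it is needed for making piRNAs, the small RNAs that silence transposons in the germ line. CCNB1IP1, also called HEI10, is a RING-finger protein that in mouse meiosis helps to settle which recombination sites become crossovers, and the human protein was named for binding cyclin B1. Neither gene is known as a marker of the blastocyst.

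The probe sequences are shown because the results below compare the probes of a gene with each other. Each is 60 bases long and is written 5′ to 3′ in lower case, with capitals for the bases it shares with another probe of the same gene.

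ASZ1 A_04_P050873: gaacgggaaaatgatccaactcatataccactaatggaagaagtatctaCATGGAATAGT

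ASZ1 A_04_P050872: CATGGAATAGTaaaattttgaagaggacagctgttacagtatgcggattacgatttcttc

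CCNB1IP1 A_04_P074314: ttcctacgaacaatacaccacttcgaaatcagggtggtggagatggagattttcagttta

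CCNB1IP1 A_04_P074313: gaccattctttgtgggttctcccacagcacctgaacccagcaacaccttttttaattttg

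CCNB1IP1 A_04_P074312: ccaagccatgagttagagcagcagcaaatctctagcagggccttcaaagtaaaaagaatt

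The ASZ1 probes lie on the plus strand at chr7:27863878-27863937 and chr7:27863927-27863986, by the array files, whose genome build is not stated in what was used here. They start at transcript bases 1312 and 1361 and share 11 bases, so they read adjoining, partly overlapping stretches of the transcript. The CCNB1IP1 probes lie on the minus strand at chr17:40776553-40776612, chr17:40776493-40776552 and chr17:40776428-40776487. They start at transcript bases 646, 706 and 771 and share no base. In both genes the steps between probes are the same length on the transcript and on the genome (49 bases for ASZ1, 60 and 65 for CCNB1IP1), and each probe spans 60 genomic bases, so no intron falls within or between them in that annotation. Exon numbers and UTR limits were not used here. No other probe on the array shared a run of 20 bases with any of the 5 on either strand. GC content was 36.7% for both ASZ1 probes and ran from 41.7% to 45.0% for CCNB1IP1.

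On the array as a whole, the share of spots well above background ran from 44.7% to 58.0% in green and from 64.2% to 74.5% in red, and the number of arrays limits the precision. The member probes were well above background in all 12 channel measurements, none was saturated or flagged as an outlier, and all 5 were among the 30761 probes tested. Of 9 trophectoderm markers (outer layer cells) and 7 pluripotency markers, the 5 and 2 tested were all well above background in all 6 control measurements, POU5F1 and DPPA5 being the latter. The trophectoderm factor ELF5 was well above background in 0 of 12 channel measurements on each of its 5 probes, and the other markers of these lists had no probe with a matched symbol. Germ cell markers were dim. Of 6 such markers 3 were tested, with MAEL well above background in 6, DDX4 in 4 and DND1 in 2 of the 6 control measurements, while DAZL and PIWIL2 were well above background in 0 of 12 channel measurements.

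Slowly frozen against untreated embryos gave the values by which the genes were picked. ASZ1 was about 2-fold higher in frozen embryos on both probes. On probe A_04_P050873 the log2 ratio of frozen over control was 1.43, 0.91 and 1.06 on the arrays of replicates 1, 2 and 3, and on A_04_P050872 it was 1.56, 0.71 and 1.02. Frozen replicate 1 was the highest and the dye-swapped replicate 2 the lowest on both probes, and every frozen array was above 0. The fitted log2 values, with a term for the dye, were 1.12 ± 0.13 and 1.05 ± 0.15 (SE, n = 3 arrays), or 2.17-fold and 2.07-fold.

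CCNB1IP1 was also higher on each frozen array, by an amount that depended on the probe. The probe nearest the transcript start, A_04_P074314, had log2 ratios of 0.71, 1.35 and 1.097 on frozen replicates 1, 2 and 3, a fitted 1.09 ± 0.14 or 2.13-fold. A_04_P074313 had 0.61, 0.40 and 0.60, a fitted 0.49 ± 0.11 or 1.41-fold. A_04_P074312, the brightest, had 0.41, 0.58 and 0.50, a fitted 0.51 ± 0.11 or 1.42-fold. On A_04_P074314 replicate 1 was the lowest and the dye-swapped array the highest, the reverse of the order for ASZ1.

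In limma's test with Benjamini-Hochberg adjustment over all tested probes at a threshold of 0.05, A_04_P050873 and A_04_P074314 were called higher in frozen embryos, that is 1 of 2 ASZ1 and 1 of 3 CCNB1IP1 probes, where 0.0878% of all tested probes were called higher. These calls chose the genes, and nothing is read from them. All 5 probes had an unadjusted p under 0.05 there, where 13.2% of all probes did. Ordered by fitted value among the 30761 tested probes, A_04_P050873 stood at place 36 from the top, A_04_P074314 at 40 and A_04_P050872 at 49, while A_04_P074312 and A_04_P074313 stood at 539 and 590. The log2 ratio lay above 0 on all 3 frozen arrays for 5 of 5 probes, as it did for 15.7% of all probes.

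**Figure D1:**
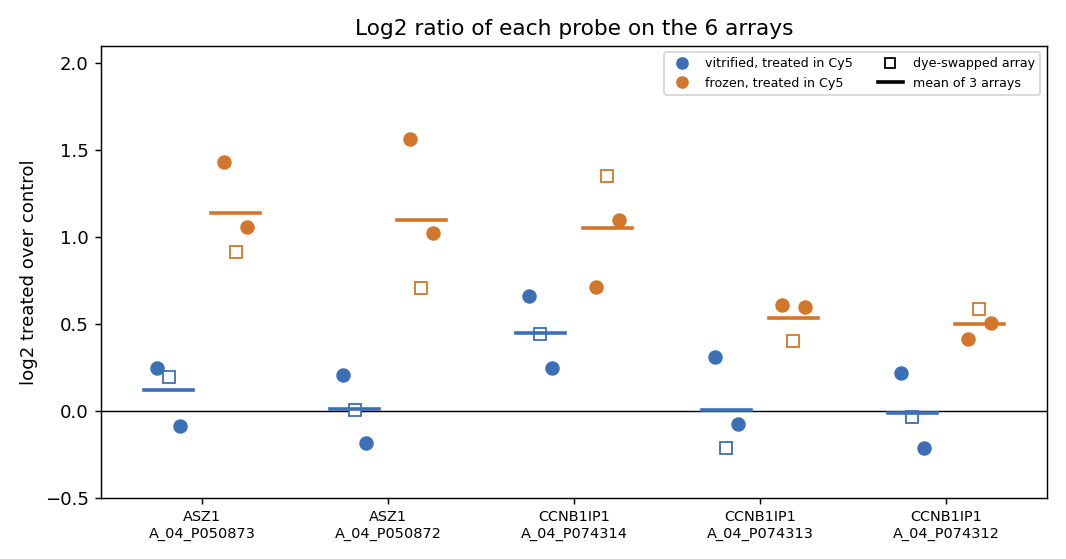
Log2 ratio of treated over control for each of the 5 probes on the 3 vitrified (blue) and 3 frozen (orange) arrays; open squares are the dye-swapped arrays and bars the mean of 3 arrays. Every frozen point lies above every vitrified point of the same probe, by 0.67 for A_04_P050873 and by 0.055 for A_04_P074314, and only A_04_P074314 has its 3 vitrified points above 0.

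Vitrified against untreated embryos did not choose the genes and was tested. ASZ1 had log2 ratios of 0.25, 0.20 and -0.09 on vitrified replicates 1, 2 and 3 for A_04_P050873 and of 0.21, 0.0038 and -0.18 for A_04_P050872. These values scattered around 0 on both probes. The fitted values were 0.10 ± 0.13 (95% interval -0.20 to 0.40, n = 3 arrays, adjusted p = 0.726 from limma) and -0.04 ± 0.15 (-0.40 to 0.31, adjusted p = 0.913). Rises above 0.40 on A_04_P050873 and above 0.31 on A_04_P050872 lie outside these intervals, and changes within them in either direction could not be told from 0. These limits hold for this fit only. In a fit with an intensity trend and robust spread the SEs were 0.27 and 0.25, which widens both intervals.

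CCNB1IP1 in vitrified embryos again depended on the probe. A_04_P074314 had log2 ratios of 0.66, 0.44 and 0.24 on replicates 1, 2 and 3, above 0 on each array, with a fitted value of 0.49 ± 0.14 (95% interval 0.17 to 0.80). Its unadjusted p was 0.00794 and its adjusted p 0.188, so it did not pass the test over all probes. A_04_P074313 had 0.31, -0.22 and -0.08, a fitted -0.04 ± 0.11 (-0.29 to 0.21, adjusted p = 0.883), and A_04_P074312 had 0.22, -0.04 and -0.21, a fitted -0.0043 ± 0.11 (-0.27 to 0.26, adjusted p = 0.990). Of the 5 probes 0 were called by limma, where 0.0195% of all tested probes were, and 1 of 5 had an unadjusted p under 0.05, where 17.4% of all probes did. The log2 ratio was above 0 on all 3 vitrified arrays for 1 of 5 probes, as for 20.4% of all probes. Without the array of vitrified replicate 1 the value of A_04_P074314 was 0.34 and without replicate 2 it was 0.67, and it passed in neither fit.

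The channel levels behind these ratios were taken after loess within arrays and quantile normalisation between arrays of each spot's average log2 intensity over both channels. They are in log2 units that are to be compared within a probe only. In control embryos A_04_P050873 ran from 8.02 to 8.72 over the 6 control measurements, with a median of 8.45. Its treated level was 8.71, 8.42 and 7.93 in vitrified replicates 1, 2 and 3 and 9.87, 9.64 and 9.67 in frozen replicates 1, 2 and 3. All 3 frozen levels stood above all 6 control levels and the vitrified levels lay among or below them.

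For A_04_P074314 the controls ran from 7.99 to 8.65, with a median of 8.24. Its level was 9.07, 8.43 and 8.32 in the vitrified and 9.28, 9.43 and 9.75 in the frozen replicates 1, 2 and 3. Vitrified replicate 1 was above all control levels of this probe and the other 2 vitrified samples were within them. On A_04_P074312 the controls ran from 9.04 to 9.41, the vitrified samples from 9.01 to 9.29 and the frozen samples from 9.51 to 9.91. On A_04_P074313 the lowest frozen level was 9.083 and the highest control level 9.079, the narrowest gap of the 5 probes. The 3 frozen levels were above all 6 control levels for 5 of 5 probes, which held for 2.99% of all probes and belongs to the comparison that chose the genes.

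The controls of a same-numbered pair of arrays, which the labels name as the same extract, differed within a probe by up to 0.16 for replicate 1, up to 0.50 for replicate 2 and up to 0.60 for replicate 3. In A_04_P050873 that gap was 0.02, 0.50 and 0.60 for replicates 1, 2 and 3. On this probe the control on the frozen array was the brighter in replicates 2 and 3, and the control on the vitrified array in replicate 1. Other probes did not all show this order. In replicate 2 the control of A_04_P074313 was at 8.82 on the vitrified array and 8.68 on the frozen array.

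**Figure D2:**
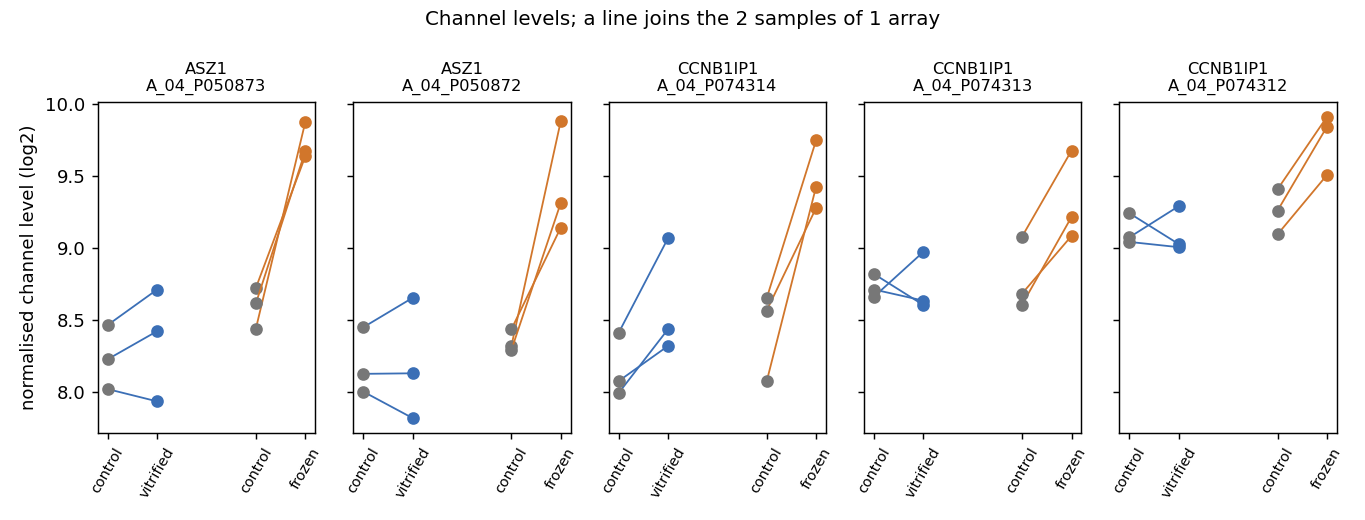
Normalised channel level (log2) of the control (grey), vitrified (blue) and frozen (orange) sample for each probe, with a line joining both samples of an array. For A_04_P050873 the frozen levels lie between 9.64 and 9.87 and the 6 control levels between 8.02 and 8.72.

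Vitrified and frozen embryos were then set against each other. For ASZ1 the fitted log2 difference of vitrified minus frozen was -1.02 ± 0.18 on A_04_P050873 and -1.09 ± 0.21 on A_04_P050872 (SE, n = 3 arrays per treatment). For CCNB1IP1 it was -0.61 ± 0.19, -0.53 ± 0.15 and -0.51 ± 0.15 on A_04_P074314, A_04_P074313 and A_04_P074312, so the 3 CCNB1IP1 probes differed less here than in the comparisons with the controls. All 3 frozen ratios lay above all 3 vitrified ratios for 5 of 5 probes, where 4.87% of all probes showed this. These differences hold the frozen arrays that chose the genes, so no test is given. Limma called 0% of all tested probes between the treatments, with 2320 probes, or 7.54%, at an unadjusted p under 0.05.

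The arrays lay on 2 slides, the first with vitrified replicate 1 and frozen replicates 1 and 2, the second with vitrified replicates 2 and 3 and frozen replicate 3. The log2 difference of frozen minus vitrified for A_04_P050873 was 0.93 on the first slide and 1.00 on the second. For A_04_P050872 it was 0.93 and 1.11. For CCNB1IP1 it was smaller on the first slide on each probe, at 0.37 against 0.75 for A_04_P074314, 0.19 against 0.74 for A_04_P074313 and 0.28 against 0.63 for A_04_P074312. The first slide holds 1 vitrified array and the second 1 frozen array, so these within-slide values have no replicate check. They are plain means without the dye term. The dye-swapped array is a frozen one on the first slide and a vitrified one on the second, so slide and dye cannot be told apart in them. The fitted dye term was 0.05 for A_04_P050873 and 0.15 for A_04_P050872, so the order of the slides is not read for ASZ1.

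The probes of a gene moved together to different degrees. The ASZ1 probes differed by between 0.04 and 0.21 in log2 ratio on any array. A_04_P074313 and A_04_P074312 differed by between 0.09 and 0.20. A_04_P074314 lay above the mean of those 2 probes on 6 of 6 arrays, by 0.39, 0.57 and 0.39 in vitrified and 0.20, 0.86 and 0.55 in frozen replicates 1, 2 and 3. The offset was thus present with both treatments, in a comparison made after the values were seen, and what sets A_04_P074314 apart was not tested.

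Across the 6 arrays, the brightest probes of ASZ1 and CCNB1IP1 correlated at Pearson's r = 0.856, a description over 6 points that share control extracts. Both genes were picked for high values on the same frozen arrays, so a high r was partly built in. Over all pairs of an ASZ1 and a CCNB1IP1 probe, r ran from 0.577 to 0.887. It was lowest for A_04_P074314, the CCNB1IP1 probe that was called. Of 8138 genes compared with ASZ1 over those 6 log2 ratios, CCNB1IP1 stood at place 130, and 62 genes had an r over 0.9. Among the 5 most alike in pattern were ZFYVE9 (r = 0.983), SECISBP2L (0.982), CRIM1 (0.974) and HSD17B11 (0.965). Their fitted frozen values were between 0.15 for SECISBP2L and 0.37 for ZFYVE9, well under that of ASZ1. For CCNB1IP1 they were MTHFD1L, an enzyme of mitochondrial folate metabolism (0.984), STXBP4 (0.980), INIP (0.973), GLA, the lysosomal alpha-galactosidase (0.970), and GDAP2 (0.970). ASZ1 stood at place 80 for CCNB1IP1. None of these named genes belongs to the germ cell and meiosis lists.

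Other germ cell and meiosis genes were read from 8 lists of 124 genes in all, of which 48 had a tested probe, 18 were on the array below the filter on dim probes and 58 had no probe with a matched symbol. Limma called 0 of the 48 in frozen and 0 in vitrified embryos, each gene read on its brightest probe, where 0.185% and 0.0195% of all tested probes were called. Of all 8146 tested genes read in the same way, 10 were called higher and 7 lower in frozen embryos. In vitrified embryos 1 was called higher and 0 lower. Of the 48, 23 were well above background in all 6 control measurements and 3 in 0, against 5436 and 86 of 8146 tested genes. A change in the dim ones may be understated. The frozen values ran from -0.62 to 0.27 with 22 of 48 above 0 and a median of -0.018. Over all 8146 tested genes 4000 were above 0, with a median of -0.0032. The vitrified values ran from -0.69 to 0.68 with 15 of 48 above 0 and a median of -0.047, against 3994 of 8146 and -0.0044 over all genes. The fitted frozen values of ASZ1 on both probes and of CCNB1IP1 on all 3 lay above the highest of the 48, as members picked for high values there. The members are given on every probe here and the 48 on the brightest alone. Read on its brightest probe, A_04_P074312, CCNB1IP1 was itself uncalled in frozen embryos (adjusted p = 0.143 in limma). That highest value was of TFAP2C, a primordial germ cell gene that is also counted below among the trophectoderm markers.

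Among 10 tested genes of the piRNA pathway, in which ASZ1 works, and of germ granules, 5 were above 0 in frozen embryos, with a median of -0.0016. DDX25, a testis helicase, was at -0.43 ± 0.10 (adjusted p = 0.156) and PIWIL4, a piRNA-binding protein, at 0.16 ± 0.10 (adjusted p = 0.549). In vitrified embryos 2 of the 10 were above 0. TDRKH, a Tudor protein of the mitochondrial outer membrane in germ cells, was at -0.63 ± 0.12 (adjusted p = 0.144) and MAEL at 0.26 ± 0.15 (adjusted p = 0.397).

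Of 4 tested crossover genes, 3 were above 0 in frozen and 1 in vitrified embryos. CDK2, a kinase found at crossover sites in mouse, was at 0.25 ± 0.11 and EME1, a partner of the resolvase MUS81, at -0.16 ± 0.09 in frozen embryos, and CDK2 was at -0.14 ± 0.11 in vitrified embryos (adjusted p = 0.550). MSH4 was well above background in 0 of 12 channel measurements. Of 7 synaptonemal complex and axis genes, 2 were above 0 in frozen embryos, with SYCP2 at -0.24 ± 0.11, and HORMAD2, an axis protein, was at 0.68 ± 0.10 in vitrified embryos (adjusted p = 0.144). SYCP1 and the recombination nuclease SPO11 were well above background in 0 of 12. The 7 tested recombination genes ran from -0.11 for MEI1 to 0.097 in frozen embryos.

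Of 6 tested genes of meiotic entry, a list that holds repressors of germ line genes as well as activators of meiosis, 1 was above 0 in frozen embryos, where 4000 of all 8146 genes were. The RNA-binding YTHDC2 was at -0.35 ± 0.15 (adjusted p = 0.376) and MGA, part of a complex that represses germ line genes, at -0.27 ± 0.15 (adjusted p = 0.490). Of 5 primordial germ cell genes 2 were above 0. KITLG, the ligand of the KIT receptor, was at -0.62 ± 0.23 in frozen and -0.69 ± 0.23 in vitrified embryos, and DND1, an RNA-binding protein of germ cells, at -0.26 ± 0.09 in frozen embryos. None of these passed. In frozen embryos the oocyte genes ran from -0.093 for ZP1 to 0.034 for ZP3, and the spermatid and testis genes from -0.17 for TEX14 to 0.060.

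The 8 tested cyclin B partners and regulators were uncalled too, with 5 above 0 in frozen embryos and 4 in vitrified. CCNB2 was at 0.25 ± 0.11 (adjusted p = 0.375) and CDC25C, a phosphatase that activates cyclin B with CDK1, at 0.21 ± 0.11 in frozen embryos, and CDC20 was at 0.45 ± 0.13 and CDK1 at -0.28 ± 0.10 in vitrified embryos. Of 5 tested genes of DNA and histone methylation in the germ line, TRIM28, a corepressor, was at 0.36 ± 0.12 in frozen and 0.84 ± 0.12 in vitrified embryos (adjusted p = 0.272 and 0.144), and EHMT2, a histone methyltransferase, at 0.54 ± 0.10 in vitrified embryos. TET2, a DNA demethylase, was at -0.15 ± 0.18 in frozen embryos.

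**Figure D3:**
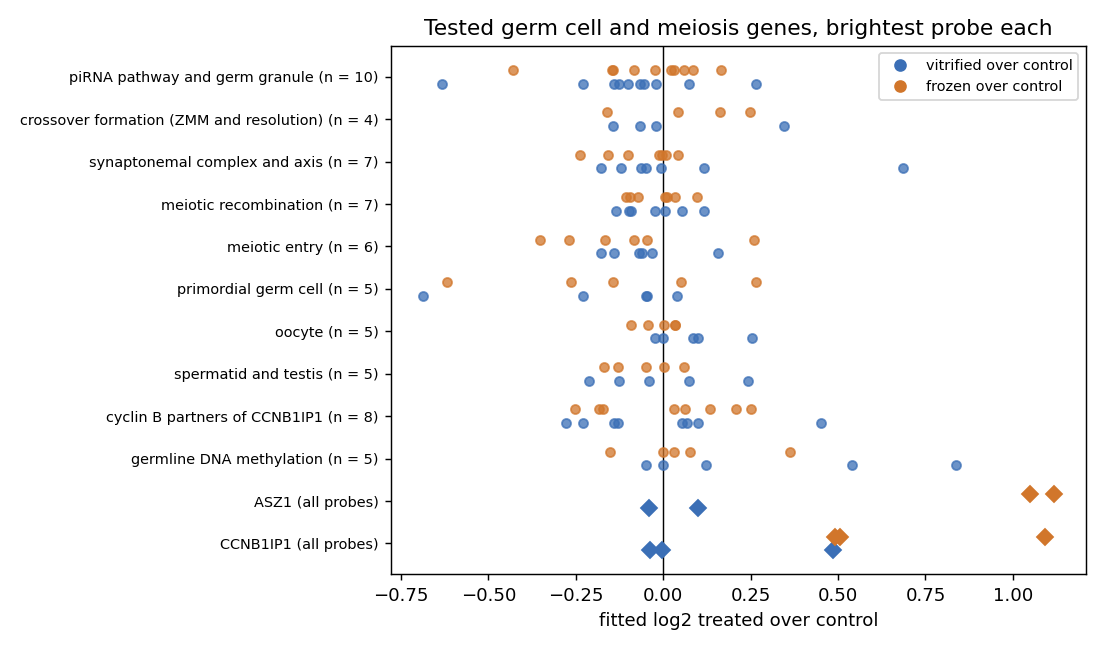
Fitted log2 treated over control of each tested list gene on its brightest probe, in vitrified (blue) and frozen (orange) embryos, with n the number of tested genes and diamonds for every probe of ASZ1 and CCNB1IP1. The frozen list genes of the germ cell and meiosis lists lie between -0.62 and 0.27 and the frozen diamonds between 0.49 and 1.12. Of the 48 tested genes of those lists, 23 were well above background in all 6 control measurements.

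Neighbours of the members on the chromosome, taken as the 3 tested genes on each side in the rabbit gene table, were uncalled in both comparisons. That table places ASZ1 on chromosome 3 and CCNB1IP1 on chromosome 12, whereas the array files place their probes on chr7 and chr17. The difference between these sources was not looked into. Around ASZ1 the frozen values of CAPZA2, ST7, WNT2, CFTR, CTTNBP2 and KCND2 ran from -0.14 to 0.41, with WNT2, a secreted Wnt ligand, at the top and the chloride channel CFTR at 0.17 ± 0.09. Around CCNB1IP1 those of APEX1, OSGEP, PARP2, TTC5, EMC4 and KATNBL1 ran from -0.19 to 0.41, with the DNA repair enzyme APEX1 at the top and at 0.62 ± 0.11 in vitrified embryos (adjusted p = 0.144). The nearest tested neighbours of CCNB1IP1, PARP2 and TTC5, were at -0.0081 and 0.13 in frozen embryos.

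Marker genes of other cells were read beside the members, since in such bulk extracts fewer cells of a type and less RNA per cell cannot be told apart. The summed level of the 3 tested germ cell markers ran from 382 to 410 units in control, from 395 to 489 in vitrified and from 380 to 400 in frozen samples (normalised linear intensity), a sum in which DDX4 and DND1 were dim. That of the 5 oocyte and cumulus markers was 456 to 504 in control 481 to 518 in vitrified and 460 to 505 in frozen samples, and 0 of the 5 was well above background in all control measurements. The 7 tested of 11 endoderm markers summed to between 8958 and 15474 in control, 8066 and 14072 in vitrified and 5232 and 7428 in frozen samples, and TTR was below the filter. In frozen embryos APOA2, an apolipoprotein, fell by 1.00 ± 0.12 on the log2 scale (adjusted p = 0.0423 in limma), the 1 endoderm marker called, while 2 of the 7 were above 0, DAB2 at 0.66 ± 0.18 (adjusted p = 0.197) and AFP at 0.14 ± 0.10. The 3 tested of 7 blood cell markers summed to between 2690 and 11493 in control, 14947 and 162001 in vitrified and 4249 and 40464 in frozen samples, with PTPRC well above background in 0 of 12 channel measurements. The 2 tested of 5 uterine markers, SCGB1A1 and WFDC2, summed to between 1310 and 3320 in control, 3856 and 6876 in vitrified and 1343 and 4042 in frozen samples. The pluripotency markers POU5F1 and DPPA5 summed to between 9339 and 18048 in control, 12127 and 15615 in vitrified and 7375 and 9369 in frozen samples. POU5F1 was at -0.82 ± 0.22 in frozen embryos (adjusted p = 0.191) and DPPA5 at 0.04 ± 0.16, so the sum mixes unlike values. The 5 tested trophectoderm markers summed to between 16872 and 27750 in control, 25124 and 30891 in vitrified and 23393 and 25935 in frozen samples. In frozen embryos 5 of 5 were above 0, where 4000 of all 8146 genes were, and 0 were called, with a median of 0.34. GATA2 was at 0.56 ± 0.14 and GATA3 at 0.46 ± 0.14 there. In vitrified embryos 4 of 5 were above 0, where 3994 of 8146 were, and 0 were called, with a median of 0.36. GATA2 was at 0.72 ± 0.14 and GATA3 at 0.14 ± 0.14 in those embryos. The part of the germ cell, oocyte, trophectoderm, pluripotency, endoderm, blood and uterine markers in the values of ASZ1 and CCNB1IP1 was not tested.

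The fitted frozen values of the members stayed above 0 in each alternative run. A_04_P050873 ran from 0.99 to 1.36, A_04_P074314 from 0.90 to 1.34 and A_04_P074312 from 0.44 to 0.57. The low end came without frozen replicate 1 for A_04_P050873 and without frozen replicate 2 for the CCNB1IP1 probes. The adjusted p of A_04_P050873 in limma's test stayed under the threshold in 5 of 15 alternatives and that of A_04_P074314 in 6 of 15. Of the fits that left out an array, only that without vitrified replicate 1 kept either call.

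**Figure D4:**
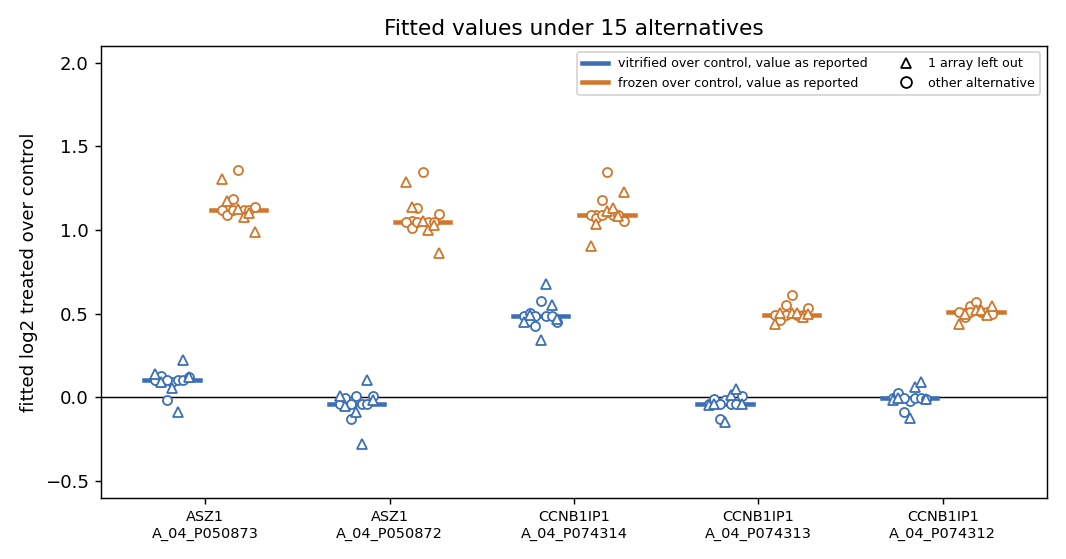
Fitted log2 treated over control of each probe as reported (bars) and under 15 alternatives (triangles, 1 array left out; circles, other settings), vitrified in blue and frozen in orange. Frozen values of A_04_P050873 span 0.99 to 1.36, and vitrified values of the same probe -0.09 to 0.22.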

How the data were processed

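The deposited intensity values, per the file headers, are each spot's mean signal and median local background in both channels, not normalised, from Agilent Feature Extraction 10.10.1.1. The same deposited files hold a log10 value of red over green that the software background-subtracted and dye-normalised, used here only as an alternative, and its flags.

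Here the mean signals were corrected by normexp (offset 50) and then by loess in limma 3.58.1 under R 4.3.3, with control spots at weight 0, outlier-flagged spots dropped and repeat spots averaged. A probe was tested if at least 3 of its 12 channel measurements were well above background, which kept 30761 of 43603. Symbols, from the RefSeq rabbit genes (mOryCun1.1), were found for 21412 probes. Another 1350 matched a gene number alone, 138 several genes and 20703 none.

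All 6 arrays were fitted together on log2 treated over control, with 1 coefficient per treatment and a dye term (3 residual degrees of freedom), followed by eBayes and Benjamini-Hochberg adjustment over all tested probes. The fit was tested on simulated data with independent noise on each array, so without shared control extracts, whose effect that simulation cannot show. Replicates are separate extracts per the labels, which also give same-numbered arrays the same control extract. Deviations of same-numbered arrays from their group means correlated at 0.017, 0.594 and 0.165 for replicates 1, 2 and 3.

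The members, lists, tests and alternatives were chosen with earlier results of these data known. Named genes are all member probes, the 2 smallest p-values per list and comparison, 3 neighbours a side and the 5 genes most alike. Other list genes named, such as those below the filter, were chosen after their values were seen. Some genes that the rule names are not reported here. Promoters and proteins were not analysed here.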

Additional observations from a re-analysis of the deposited data

How the results depend on the processing

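Each result was recomputed under 15 or 16 alternatives. Of the vitrified values of the 5 probes, 0 passed the test in any of them. Values near 0 changed sign. ASZ1 on its brightest probe was at -0.019 with median centring and CCNB1IP1 on its brightest at 0.0098 without background correction and 0.024 with slide as a covariate. The mean over the 3 CCNB1IP1 probes, which takes in A_04_P074314, was 0.15. A_04_P050872 was at 0.0074 with the scanner software's log ratio and 0.0083 without the dye term, where A_04_P074313 was at 0.0064. Leaving out 1 array gave -0.086 to 0.22, -0.13 to 0.090, -0.28 to 0.10 and -0.15 to 0.048 for these 4 probes in the same order. The frozen mean over the 3 CCNB1IP1 probes was 0.70, against 0.51 on the brightest. The frozen median of the germ cell and meiosis genes was -0.065 with the scanner software's log ratio, and the cause was not tested.

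Over all probes, the 57 calls in frozen embryos became 33 with median centring, 8 without the dye term, 1 with the scanner software's log ratio and 0 with slide as a covariate or with an intensity trend and robust spread. The 6 calls in vitrified embryos became 0 under the last 3 of these. Without 1 array the counts ran from 0 to 513 in frozen and from 0 to 16 in vitrified embryos, the highest being without vitrified replicate 1 and without vitrified replicate 3. A replicate block, with the replicate number as random, gave 61 calls in frozen and 8 in vitrified embryos, changed no call of a member probe (A_04_P050873 and A_04_P074314 both had an adjusted p of 0.0385 in limma's frozen comparison) and had a fitted correlation of -0.103. The small number of arrays and of control extracts limits all of these values.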
